A study of Mus musculus with 12 samples.

Results

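The 10 genes described here are the Argonautes *Ago1*, *Ago2*, *Ago3* and *Ago4*, the processing genes *Drosha*, *Dgcr8* and *Dicer1*, and the let-7 regulators *Trim71*, *Lin28a* and *Lin28b*. They were found by matching the RefSeq accessions of the count table to these symbols, which gave 13 of the 41388 listed transcripts. The genes were chosen by their role and with their levels and changes in these same libraries in view. Those values, and any call of a member at a threshold, are given as a description, and no p-value is printed for them.

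The data are 12 RNA-seq libraries from mouse female germline stem cells (FGSCs), cells of the ovary described as able to self-renew and to give rise to oocytes. The series asks what the loss and the gain of *Stella* (*Dppa3*), a maternal-effect gene, do to these cells. All groups were C57BL/6 FGSCs at more than 20 passages, grown with LIF, EGF, bFGF and GDNF on a feeder layer of inactivated STO mouse fibroblasts. Each of the 4 groups held 3 libraries. The knockout line (KO) was made with CRISPR/Cas9 and was 1 randomly selected clone, so the knockout and the clone cannot be told apart. Its control is labelled only as the knockout control (KO-con). The overexpressing line (Over) carried the *Stella* coding sequence in a lentiviral vector under puromycin selection, and its control (Over-con) carried the empty vector. Nothing in the sources says that the 3 repeats were separate cultures, so p-values measure the spread between these libraries, which may be technical.

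Library totals lay between 5611846 and 12866545 counts, and 3 counts in a library correspond to 0.233 to 0.535 CPM (counts after TMM scaling, put on 1 common total), a floor that covers counting error only. *Stella* was at 0 counts in all 9 libraries of KO, KO-con and Over-con and at 347, 371 and 285 counts in the Over libraries, so the table does not check the knockout label. Of 7 germ cell markers, *Ddx4* was at 0 counts in every library and *Dazl*, *Pou5f1* and *Stra8* never passed 3 counts. Of these 4, only *Stra8* has 1 listed transcript. *Ifitm3* was detected in every library. *Prdm1* had means of 1.85 CPM in KO-con, 0.31 in KO, 0.67 in Over-con and 0.70 in Over. In KO it was near the floor, and its lowest library held 2 counts. Few reads were counted on genes with several listed transcripts: 49.7% of genes with 1 coding transcript reached a mean of 1 CPM, against 22.3% of those with more. Genes of the second kind cannot be read as unexpressed.

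MicroRNAs are cut from long primary transcripts in the nucleus by DROSHA and its partner DGCR8, and the hairpin that results is cut again in the cytoplasm by DICER1. The mature strand is then loaded into an Argonaute, which it guides to matching sites in mRNAs, chiefly in their 3′ UTRs. Let-7 is the family best known for switching off genes of immature cells. LIN28A and LIN28B block its maturation, and *Trim71*, an RNA-binding ubiquitin ligase of stem and progenitor cells, is itself one of its classical targets. Germ cells hold in addition a PIWI branch of Argonautes that works without DICER1.

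The let-7 sequences are shown because *Trim71*, *Lin28a* and *Lin28b* share a site for them. Of 11 mature family members in the RefSeq table (GRCm38.p6), 10 carry the same seed (bases 2 to 8, in capitals). The exception in the table is let-7j.
mmu-let-7a-5p: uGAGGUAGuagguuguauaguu
mmu-let-7g-5p: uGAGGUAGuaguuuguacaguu
mmu-miR-98-5p: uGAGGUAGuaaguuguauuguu
mmu-let-7j: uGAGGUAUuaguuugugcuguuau

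The 7-base match to the common seed, CTACCTC, was searched on the sense strand of annotated 3′ UTRs of the mm9 genome (NCBIM37). It occurs in 1754 of 19861 genes (8.83%), and 1.02% of genes have 2 or more. Among the members *Lin28b* has 4 matches, *Trim71* and *Lin28a* have 2 each, and *Ago2* and *Ago3* have 1 each. The remaining 5 members have none in the annotated window. The 3′ UTRs with a match are long, with 12742 bases in *Ago3*, 5283 in *Ago2*, 4445 in *Lin28b*, 2775 in *Lin28a* and 1370 in *Trim71*. Those without a match have 4491 bases in *Ago1*, 3851 in *Dicer1*, 3682 in *Ago4*, 1574 in *Dgcr8* and 168 in *Drosha*. The median over all genes is 897 bases, and the shares were not adjusted for length. Both matches of *Trim71*, the first of *Lin28b* and that of *Ago2* are shown, since the levels of these genes are described in detail. The match is in capitals, and the sense strand, here the minus strand of the genome, is written 5′ to 3′ with its flanks. A match is a description of the letters and not a measured site.
Trim71, chr9:114421583-114421612: aacattgcctaagtcCTACCTCagcttaaa
Trim71, chr9:114421487-114421516: agtgataatttctatCTACCTCaactcttt
Lin28b, chr10:45100821-45100850: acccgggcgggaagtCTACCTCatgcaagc
Ago2, chr15:72932147-72932176: acagatgcataaaagCTACCTCtgacttct

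Of the 10 members, 7 had enough counts to be tested. *Ago1*, with 3 listed transcripts, had 11 counts in all libraries together and *Drosha*, with 2, had none, and by the limit above neither is read as unexpressed. *Lin28a* has 1 listed transcript (NM_145833, chr4:133559245-133574756) and had 3 counts in all, 2 in a KO-con library and 1 in an Over library, so it was at or under the floor everywhere.

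**Figure D1:**
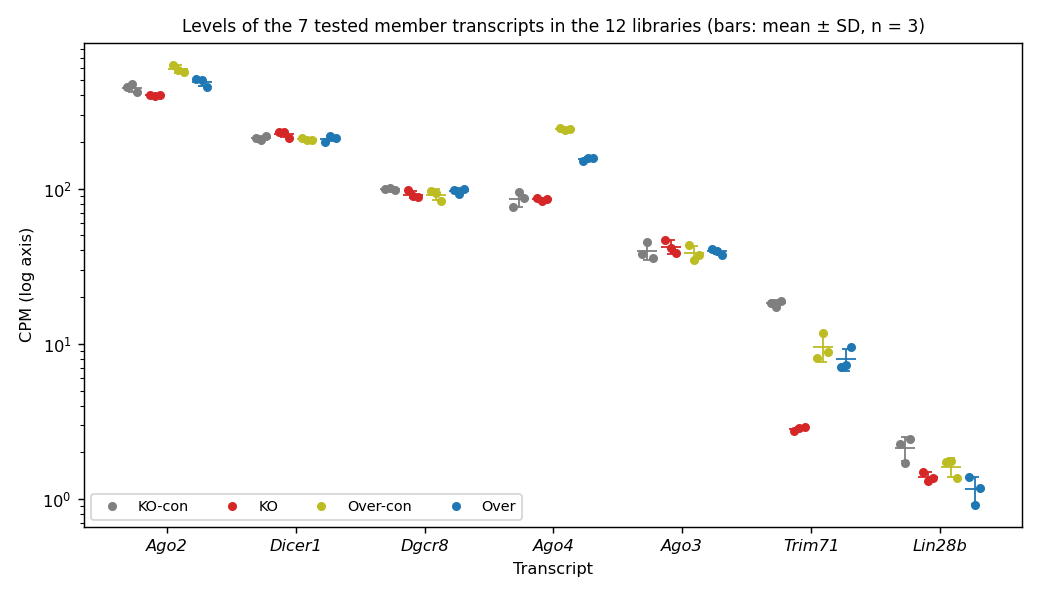
CPM on a log axis of the 7 tested members, 1 point per library and bars for the mean ± SD of 3 libraries in KO-con, KO, Over-con and Over. *Trim71* was highest in KO-con (18.2 CPM) and lowest in KO (2.84 CPM), *Ago4* was highest in Over-con (242.9 CPM), and *Dicer1* lay between 201 and 233 CPM in all 12 libraries.

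The member that differed most was *Trim71* (NM_001042503, chr9:114420393-114473487, 4 exons, minus strand), which was 6.34-fold lower in the KO line than in its control. The KO libraries held 24, 33 and 32 counts, or 2.76, 2.86 and 2.90 CPM. The KO-con libraries held 178, 193 and 157 counts, or 18.4, 17.3 and 19.0 CPM. The groups are far apart, and the KO values differ among themselves by little. The log2 fold change was -2.66 (standard error, SE, 0.16), and it lay between -2.70 and -2.63 with each library left out in turn.

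In the overexpressing line *Trim71* did not separate from its control. The Over libraries were at 7.12, 7.35 and 9.52 CPM, and the Over-con libraries were at 8.10, 11.8 and 8.93 CPM. These groups overlap, and the log2 fold change was -0.23 (SE 0.18). The control lines themselves were apart, with KO-con above Over-con by 0.96 (SE 0.15) on the log2 scale. Ordered by level, the groups ran KO-con, Over-con, Over and KO, and Over-con and Over were the only neighbours that overlapped. Set against the other control, the KO line was still lower, by a log2 fold change of -1.72. The Over line was also lower when set against KO-con, by a log2 fold change of -1.19. The difference between the knockout and the overexpression effect was -2.43 (SE 0.24).

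*Lin28b* (NM_001031772, chr10:45096426-45206201), the other let-7 regulator detected, was close to the detection limit. The KO libraries had 13, 15 and 15 counts and the KO-con libraries 22, 19 and 20. The Over libraries had 15, 12 and 11 counts and the Over-con libraries 17, 10 and 14. In CPM every KO library was below every KO-con library, while Over and Over-con overlapped. The log2 fold changes were -0.60 (SE 0.32) in the knockout and -0.47 (SE 0.35) in the overexpressing line, and with counts this low their 95% confidence intervals reached from -1.28 to 0.08 and from -1.21 to 0.28.

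Among the Argonautes, *Ago4* carried the widest difference between lines. It lies with *Ago3* and *Ago1* in 1 cluster of 201769 bases on chromosome 4, all on the minus strand, while *Ago2*, the member able to cut its target, lies alone on chromosome 15. *Ago4* (NM_153177, chr4:126166785-126210716) was at 245, 240 and 244 CPM in Over-con and at 151, 157 and 158 CPM in Over. It was at 76.1, 94.5 and 86.9 CPM in KO-con and at 87.7, 83.9 and 85.9 CPM in KO. The empty-vector control thus stood above every other library, the Over libraries lay between, and the KO and KO-con libraries overlapped.

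In the overexpressing line *Ago4* was 1.56-fold lower than with the empty vector (log2 fold change -0.64, SE 0.06). In the knockout it was 0.01 (SE 0.09). The difference between the control lines, -1.49 (SE 0.08) for KO-con minus Over-con, was larger than either. Set against KO-con in place of Over-con, the Over line was higher by 0.86, so the direction of *Ago4* in that line depends on which control is used. Set against Over-con in place of KO-con, the KO line was lower, by a log2 fold change of -1.50. The line effects on *Ago4* differed by 0.64 (SE 0.10), as the knockout effect minus the overexpression effect.

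*Ago2* (NM_153178, chr15:72932055-73015377), the most abundant member, moved in the same order with a smaller span. It was at 630, 581 and 568 CPM in Over-con, at 507, 500 and 455 CPM in Over, at 451, 474 and 419 CPM in KO-con and at 400.1, 397 and 401 CPM in KO. Over-con stood above Over in every library, and KO-con stood above KO in every library. The log2 fold changes were -0.27 (SE 0.07) in the overexpressing line and -0.16 (SE 0.07) in the knockout. The former turned to 0.13 against KO-con, and the latter became -0.57 against Over-con. Over the 12 libraries the log2 CPM of *Ago2* and *Ago4* had a Pearson r of 0.91, a value that rests largely on the difference between lines.

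*Ago3* (NM_153402, chr4:126008948-126106800) stayed between 34.5 and 46.7 CPM in all 12 libraries. Its 4 groups overlapped, and its log2 fold changes were 0.09 (SE 0.11) in the knockout and 0.04 (SE 0.10) in the overexpressing line. Of the 30-base words of the annotated transcripts, 0.906% of those of *Ago3*, 0.138% of those of *Ago4*, 0.363% of those of *Ago2* and 2.28% of those of *Ago1* occur in another gene.

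To compare levels between Argonautes, CPM were divided by transcript length. *Ago2* made up 78.1 ± 1.63% (SD, n = 3) of the summed *Ago2*, *Ago3* and *Ago4* level per kb in KO-con, 75.9 ± 0.539% in KO, 65.0 ± 1.02% in Over-con and 69.8 ± 1.55% in Over. *Ago4* made up 18.4 ± 1.60%, 20.0 ± 0.251%, 32.8 ± 1.11% and 27.3 ± 1.57% in the same order. *Ago3* made up no more than 4.52% in any library. *Ago1* could not be included, since its reads were hardly counted, so these shares are of 3 Argonautes and not of the family.

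**Figure D2:**
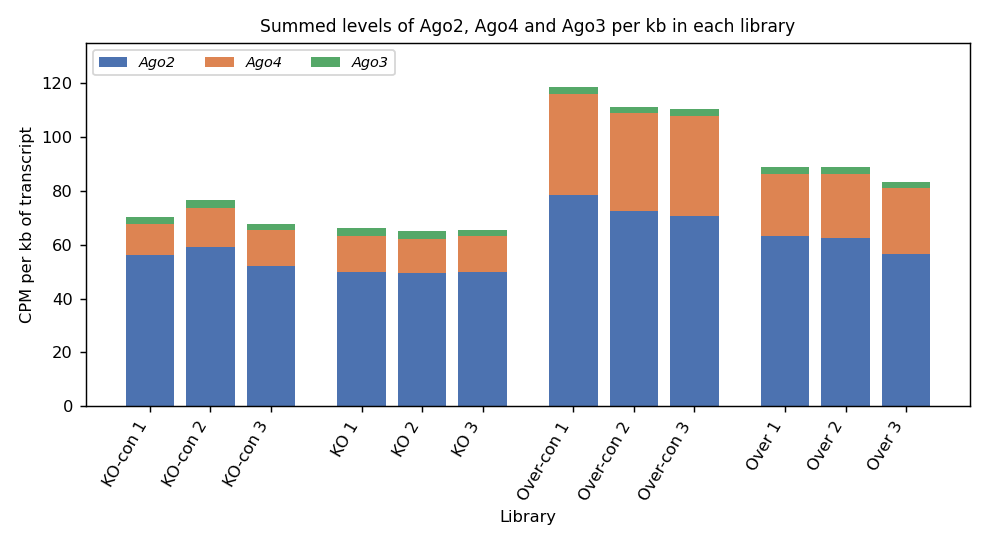
CPM per kb of transcript (linear axis from 0) of *Ago2*, *Ago4* and *Ago3*, stacked for each of the 12 libraries. The summed height was 71.5 ± 4.47 in KO-con, 65.6 ± 0.636 in KO, 113 ± 4.52 in Over-con and 87.0 ± 3.20 in Over (mean ± SD, n = 3).

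The processing genes varied little between these libraries. *Dicer1* (NM_148948, chr12:105925952-105990162) was between 201 and 233 CPM in all 12 libraries. KO overlapped KO-con and Over overlapped Over-con, while the KO libraries (231, 233 and 213 CPM) lay above those of Over-con (211, 207 and 205 CPM). Its log2 fold changes were 0.10 (SE 0.07) in the knockout and 0.03 (SE 0.06) in the overexpressing line, with 95% confidence intervals from -0.05 to 0.24 and from -0.10 to 0.16.

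*Dgcr8* (NM_033324, chr16:18254041-18289342) was at 97.7, 89.2 and 88.3 CPM in KO and at 99.4, 101 and 98.7 CPM in KO-con, just apart. In Over and Over-con it lay between 83.2 and 99.3 CPM and the groups overlapped. Its log2 fold changes were -0.12 (SE 0.07) and 0.09 (SE 0.08). It overlaps *Trmt2a*, which lies on the other strand, has 4 listed transcripts, so that its low counts cannot be read as absence, and had no more than 2 counts per library, and the hairpin of *Mir1306*, which had none. The strand setting of the counting is not given in the sources used here.

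**Figure D3:**
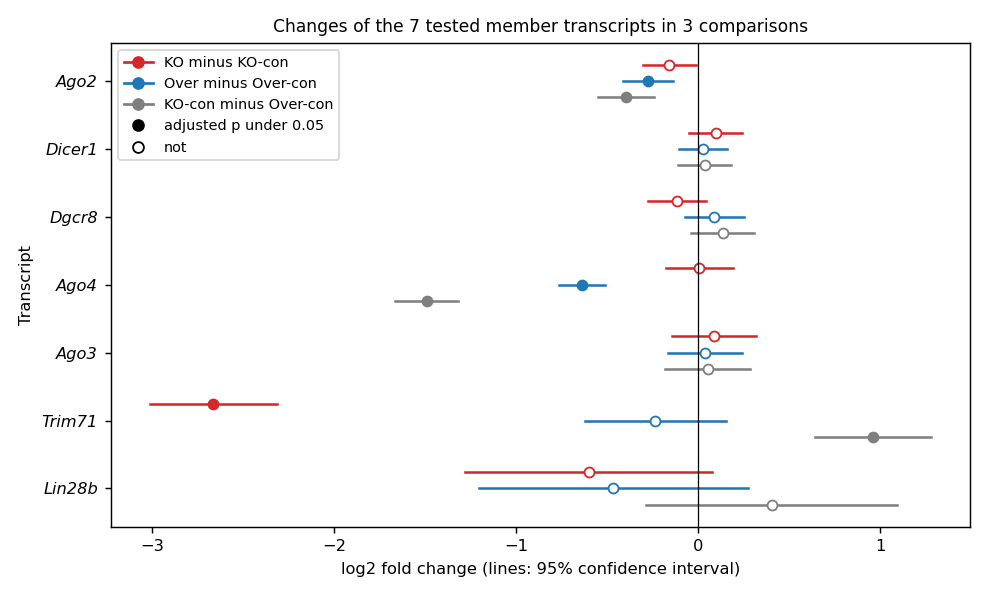
Log2 fold changes (points) with 95% confidence intervals (lines) of the 7 tested members for KO minus KO-con, Over minus Over-con and KO-con minus Over-con, filled where the adjusted p over all transcripts was under 0.05. *Trim71* at -2.66 and *Ago4* at -1.49 stand farthest from 0, the latter between the control lines, while of *Dicer1*, *Dgcr8* and *Ago3* the value farthest from 0 is 0.13.

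In the knockout comparison 1 of 7 tested members was called at an adjusted p under 0.05 in edgeR's quasi-likelihood test (*Trim71*), against 11.8% of all 9457 transcripts tested. It was also the 1 member over an absolute log2 fold change of 1, against 1.7% of transcripts. The groups did not overlap for 4 of 7, against 30.5%. In the overexpression comparison 2 of 7 were called (*Ago2* and *Ago4*), against 1.65% of 9401, and these were also the 2 without overlap, against 19.3%. Neither passed the fold threshold, which 0.17% of transcripts did. Between the controls 3 of 7 were called (*Trim71*, *Ago2* and *Ago4*), against 16.3% of 9321, *Ago4* also over the fold threshold (2.16% of transcripts), and 4 of 7 did not overlap, against 32.1%. For the difference of effects 2 of 7 were called (*Trim71* and *Ago4*), against 8.64% of 9903. Since the members were chosen with these contrasts in view, nothing is read from these shares or calls. How the calls fared under the alternatives, given next, describes the fits and does not make up for that choice. *Trim71* was called in the knockout under each of 16 alternatives. So was *Ago4* in the overexpressing line, although with KO-con as the control it was called in the opposite direction. The call of *Ago2* in the overexpressing line was lost under 8 of 16, among them 5 of the 6 fits with 1 library left out.

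Markers of other cells differed between the groups beside these values. In bulk RNA, fewer cells of a type and less RNA per cell cannot be told apart. The 8 fibroblast markers, which STO feeder cells also express, summed to between 997 and 1179 CPM in KO-con, 876 and 1264 in KO, 1404 and 1587 in Over-con and 1243 and 1298 in Over. *Ago4* and *Ago2* were likewise highest in Over-con. The sum consists mostly of the collagen genes *Col1a1*, *Col1a2* and *Col3a1*, and *Thy1* ran otherwise, with means of 37.1 CPM in KO-con, 45.9 in KO, 40.1 in Over-con and 35.8 in Over. *Pdgfrb*, with 2 listed transcripts, was at 0 and cannot be read as unexpressed, and *Lum* never passed 3 counts. The 12 mast and myeloid markers summed to between 508 and 574 CPM in KO-con, 1297 and 1398 in KO, 928 and 1012 in Over-con and 813 and 824 in Over, the reverse of the order of *Trim71* at both ends. That sum consists mostly of *Cpa3*, a mast cell protease (log2 fold change 1.55, SE 0.08 in the knockout). *Hdc* and *Cma1* also had higher means in KO than in KO-con, 4.17 against 1.70 CPM and 3.80 against 1.12 CPM. *Gata2* did not, at 3.34 against 3.89 CPM. *Ptprc* ran otherwise and was highest in Over-con, with means of 40.4 CPM in KO-con, 43.5 in KO, 58.7 in Over-con and 50.1 in Over. *Spi1* had means of 94.7, 110.5, 103.7 and 108.8 CPM in the same order. *Csf1r* and *Lyz2* had means of no more than 1.56 and 0.76 CPM in any group. *Fcer1a* and *Ms4a2* were at 0, and *Kit* and *Tpsb2* never passed 3 counts. Of these, *Ms4a2* and *Kit* have several listed transcripts and cannot be read as unexpressed. The part of these cells in the values of *Trim71*, *Ago2* and *Ago4* was not tested.

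The rest of the pathway was followed through 9 lists of 97 genes, none of them members. The lists were also chosen with earlier results of these data known. Shares, calls and adjusted p-values of their genes are therefore a description. Of 51 genes with 1 listed transcript 44 were tested, and of 45 with more than 1 only 16 were. In the knockout 11 of 64 transcripts tested were called (17.2%, against 11.8% of all transcripts), 10 lower and 1 higher, with a median log2 fold change of -0.06 beside 0.01 over all transcripts. In the overexpressing line 3 of 63 were called (4.76%, against 1.65%), 1 higher and 2 lower. Between the controls 13 of 62 were called (21%, against 16.3%), 12 of them higher in KO-con. This comparison and the knockout comparison use the same KO-con libraries, so their directions are not independent. Single libraries weigh on these counts. The knockout count fell to 5, 6 or 7 without KO replicate 2 or any 1 of the KO-con libraries, and to 4 against Over-con. The overexpression count was 0 or 1 without any 1 library other than Over-con replicate 3, and 18 against KO-con. The count between controls was 4 without KO-con replicate 1 and 8 without KO-con replicate 2.

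**Figure D4:**
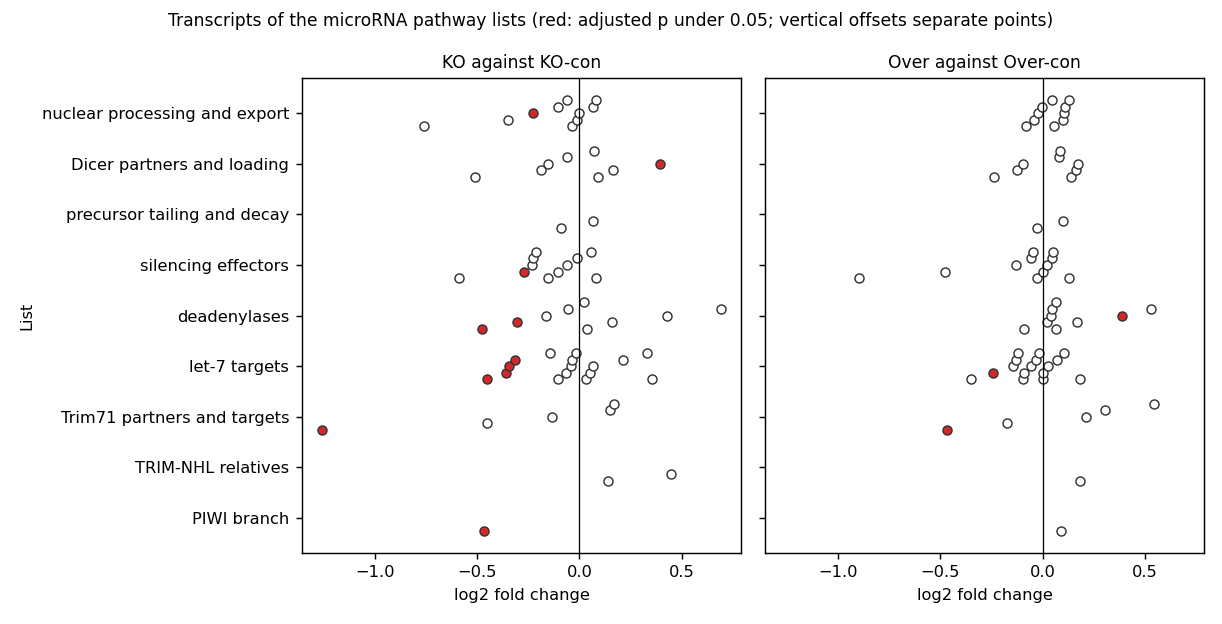
Log2 fold changes (points, 1 per tested transcript, offset vertically within a list) of 9 lists of the microRNA pathway, in the left panel for the knockout and in the right for the overexpression comparison, red where the adjusted p was under 0.05. In the knockout 10 of the 11 called transcripts lie left of 0, the farthest being *Cdkn1a* at -1.26, and 3 transcripts were called in the overexpressing line.

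Of the nuclear partners and the export route, 1 of 10 transcripts was called in the knockout. *Khsrp*, an RNA-binding protein that aids the maturation of let-7 and other precursors, was at 370, 337 and 357 CPM in KO and at 422, 425 and 405 CPM in KO-con (log2 fold change -0.23, SE 0.07, adjusted p = 0.0363). This call was lost under 9 of 16 alternatives. *Xpo5*, which exports the hairpin to the cytoplasm, had log2 fold changes of -0.11 (SE 0.06) in the knockout and -0.02 (SE 0.06) in the overexpressing line. In that line none of the 10 transcripts was called by edgeR or DESeq2, and 0 had an unadjusted p under 0.05.

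Among the partners of DICER1 and the loading chaperones, *Prkra*, a double-stranded RNA-binding partner of DICER1, rose in the knockout. It was at 38.0, 40.8 and 42.9 CPM in KO and at 32.7, 31.1 and 29.2 CPM in KO-con (log2 fold change 0.40, SE 0.10, adjusted p = 0.0144). It was the only pathway transcript called higher there, and the 1 of 8 called on its list. The call was lost under 4 of 16 alternatives, among them 3 of the 6 fits with 1 library left out and the fit against Over-con (0.23). *Fkbp4*, a cochaperone of HSP90, was higher in KO-con than in Over-con (0.31, SE 0.07, adjusted p = 0.00527). On the list for tailing and decay of precursors, *Tut4*, the uridylyltransferase recruited by LIN28A, differed between the controls by 0.25 (SE 0.08, adjusted p = 0.0337). That call was lost under 6 of 15 alternatives, 5 of them fits with 1 library left out, and the value was 0.17 without Over-con replicate 3. The knockout and overexpression fits called 0 of the 2 transcripts tested on that list, with 0 at an unadjusted p under 0.05 and 0 by DESeq2.

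Of the silencing effectors, which carry out repression and decay behind the Argonaute, 1 of 11 transcripts was called in the knockout. *Dcp1a*, a decapping activator, was at 122, 124 and 124 CPM in KO and at 151, 154 and 143 CPM in KO-con (log2 fold change -0.27, SE 0.07, adjusted p = 0.0169). The call was lost under 5 of 16 alternatives, among them 3 of the 6 fits with 1 library left out, and against Over-con the value was -0.01. *Tnrc6a*, a GW182 protein that binds Argonautes directly, had a log2 fold change of -0.15 (SE 0.07, adjusted p = 0.164) in the knockout and was higher in KO-con than in Over-con by 0.26 (SE 0.07, adjusted p = 0.0122). *Snd1*, a nuclease found with silencing complexes, was also higher in KO-con, by 0.36 (SE 0.07, adjusted p = 0.00156). In the overexpressing line 0 of the 11 were called by edgeR or DESeq2, and 0 had an unadjusted p under 0.05.

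On the list of deadenylases and their adaptors 2 of 9 transcripts fell in the knockout. *Cnot3*, a subunit of the CCR4-NOT complex that shortens poly(A) tails, was at 132, 151 and 168 CPM in KO and at 233, 212 and 187 CPM in KO-con (log2 fold change -0.48, SE 0.09, adjusted p = 0.00344). The spread inside both groups was wide, but the groups did not overlap. Against Over-con the value was -0.16 and not called. *Tob2*, an adaptor of the same complex, fell by 0.31 on the log2 scale (SE 0.07, adjusted p = 0.0106), a call lost without KO-con replicate 1 and against Over-con (-0.18). Its relative *Tob1* rose in the overexpressing line, from 50.9 ± 4.30 CPM (SD, n = 3) in Over-con to 66.6 ± 1.18 CPM in Over (log2 fold change 0.39, SE 0.08, adjusted p = 0.0248). That call was lost under 7 of 16 alternatives.

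Of the 23 mRNAs listed as let-7 targets, 15 have a CTACCTC match in the annotated 3′ UTR and 16 were tested. In the knockout 4 were called lower and none higher, while 6 of the 16 lay above 0, with a list median of -0.04 beside 0.01 over all transcripts. *Plagl2*, a zinc-finger transcription factor, was at 149, 161 and 162 CPM in KO and at 207, 204 and 198 CPM in KO-con (log2 fold change -0.36, SE 0.07, adjusted p = 0.00247). *Ccnd2*, a D-type cyclin, fell by 0.34 on the log2 scale (SE 0.07, adjusted p = 0.00294). It was the gene of the list called lower in the overexpressing line as well, by a log2 fold change of -0.24 (SE 0.06, adjusted p = 0.0388), but that call was lost under 7 of 16 alternatives, among them 5 of the 6 fits with 1 library left out. *Cdk6*, the kinase partner of D-type cyclins, fell by 0.31 in the knockout (SE 0.07, adjusted p = 0.0049). The remaining call was *Arid3b*, at -0.45 (SE 0.11, adjusted p = 0.0169). Of these 4, *Plagl2* and *Arid3b* have 1 match each in the annotated 3′ UTR, and *Ccnd2* and *Cdk6* have 0.

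*Plagl2* and *Cdk6* did not keep their direction against the other control. *Plagl2* was 0.69 (SE 0.07, adjusted p = 7.8e-07) and *Cdk6* 0.56 (SE 0.07, adjusted p = 1.7e-05) higher in KO-con than in Over-con on the log2 scale. With Over-con as the control, the KO line was higher for *Plagl2*, by 0.32, and for *Cdk6*, by 0.23, while *Ccnd2* was still lower, by a log2 fold change of -0.43. KO-con was thus the group that stood apart for *Plagl2* and *Cdk6*, with the highest level of the 4 groups. It was also highest for *Trim71*, but there KO was lowest and stayed lower against Over-con (-1.72).

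Across all mRNAs, transcripts with a let-7 match in the 3′ UTR had medians close to those without one. In the knockout the median log2 fold change was -0.00 for 906 transcripts with at least 1 match, -0.03 for 115 with at least 2 and 0.01 for 7475 with none. Of these 12.5%, 13.9% and 12.6% were called. In the overexpressing line the medians were 0.01, 0.01 and -0.00 for 898, 116 and 7443 transcripts. Mature microRNAs were not measured in these mRNA libraries, so the amount of let-7 is unknown.

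Of the partners and mRNAs described for TRIM71, 1 of 5 transcripts was called in the knockout. *Cdkn1a*, the cell cycle inhibitor p21 whose mRNA TRIM71 is known to repress, was at 0.461, 2.34 and 1.09 CPM in KO and at 3.31, 3.04 and 3.51 CPM in KO-con on 1 of its 2 listed transcripts (log2 fold change -1.26, SE 0.39, adjusted p = 0.0459). The call was lost under 8 of 15 alternatives, and the value lay between -2.0 (without KO replicate 2) and -0.91 (without KO replicate 1). *Egr1*, an immediate early transcription factor, fell in the overexpressing line by 0.47 (SE 0.11, adjusted p = 0.04), and against KO-con the Over line was higher by 0.39. The call was also lost under 5 of 16 alternatives, 4 of them fits with 1 library left out. Among the other TRIM-NHL proteins only *Trim2* had tested transcripts, and neither of the 2 in the knockout was called, with 0 at an unadjusted p under 0.05 and 0 by DESeq2.

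The PIWI branch was hardly seen. Of 13 genes 12 were matched to the table and 1 was tested. *Piwil1*, *Mael*, *Asz1* and *Gtsf1*, each with 1 listed transcript, never passed 2 counts. *Mov10l1* and *Tdrd9*, also with 1 listed transcript, reached 9 and 6 counts in a library. Their highest group means were 0.69 CPM in Over and 0.39 CPM in KO-con. *Tex19.1*, a germ cell gene of the transposon control route, was at 26.6, 26.5 and 28.5 CPM in KO and at 35.5, 29.6 and 49.3 CPM in KO-con (log2 fold change -0.47, SE 0.15, adjusted p = 0.0494). KO-con replicate 3, at 49.3 CPM, stood above the other two. The value lay between -0.63 and -0.25 with 1 library left out, nearest to 0 without KO-con replicate 3, and the call was lost under 8 of 16 alternatives.

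The transcript named as host of the miR-17 cluster also fell in the knockout. It is shown although it was singled out after its values were seen, among 10 genes named as microRNA hosts, of which 5 transcripts were tested. In RefSeq (GRCm38.p6) the hairpins of miR-17 and miR-20a lie just before its annotated start. *Mir17hg* (NR_029382) was at 38.6, 45.6 and 49.8 CPM in KO-con and at 28.3, 27.6 and 29.0 CPM in KO. It was at 23.5, 27.5 and 25.1 CPM in Over-con and at 27.1, 27.9 and 31.3 CPM in Over. KO-con was again the high group, and the other 3 groups lay close together. Among the tested host transcripts *Mir99ahg* ran otherwise, with means of 16.5 CPM in KO-con, 22.0 in KO, 5.52 in Over-con and 8.99 in Over. It was not called in the knockout (0.41, SE 0.15) or the overexpressing line (0.74, SE 0.19). Between the controls it differed by 1.61 (SE 0.18). For *Mir17hg* the log2 fold change was -0.65 (SE 0.11, adjusted p = 0.000888) in the knockout. It was 0.20 (SE 0.10, adjusted p = 0.443) in the overexpressing line. The difference of these effects was -0.85 (SE 0.15, adjusted p = 0.00097). The members of that cluster shown here, miR-17 and miR-20a, share 1 seed, in capitals.
mmu-miR-17-5p: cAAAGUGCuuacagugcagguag
mmu-miR-20a-5p: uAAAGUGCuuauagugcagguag

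The match to this seed, GCACTTT, occurs in the annotated 3′ UTRs of 2188 of 19861 genes. In the knockout, 1162 transcripts with a match had a median log2 fold change of 0.02, beside -0.01 for 163 with at least 2 matches and 0.01 for 7219 without, and 14%, 18.4% and 12.4% of them were called. Of the members *Ago3* has 3 such matches and *Ago1* has 1.

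**Figure D5:**
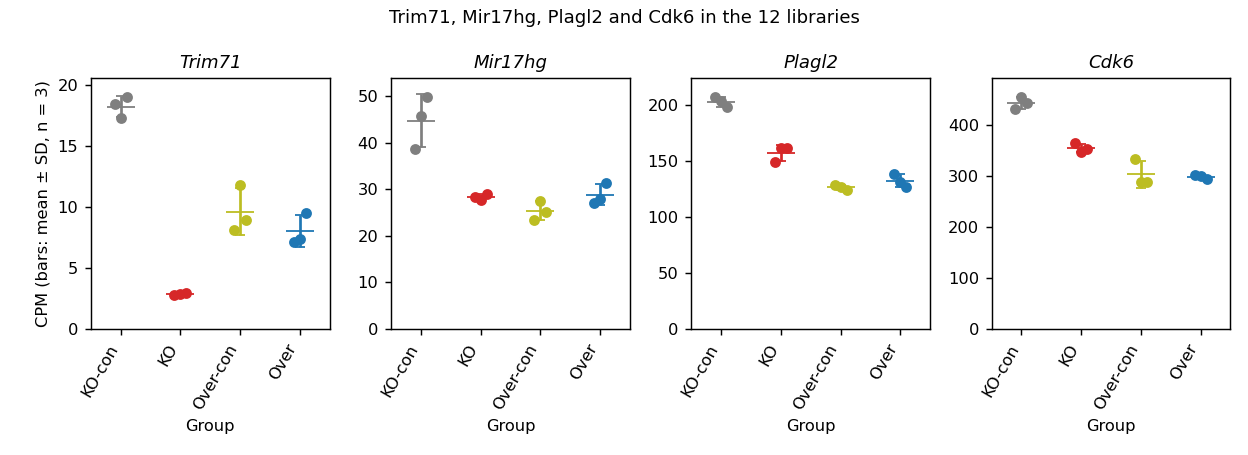
CPM (linear axes from 0) of *Trim71*, *Mir17hg*, *Plagl2* and *Cdk6* in each of the 12 libraries, with bars for the mean ± SD of 3 libraries in KO-con, KO, Over-con and Over. KO-con is highest in each panel (18.2, 44.7, 203 and 443 CPM), and KO falls under both overexpression groups only for *Trim71* among these 4 transcripts (2.84 CPM).

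Over the 12 libraries the transcripts whose log2 CPM followed *Trim71* most closely among 9903 were *Fgl2* (Pearson r = 0.97), *Clic4* (0.96) and *Kcnk6* (0.96). *Fgl2*, a secreted fibrinogen-like protein, was at 750 ± 26.1 CPM (SD, n = 3) in KO-con, 235 ± 29.9 in KO, 472 ± 25.1 in Over-con and 479 ± 19.7 in Over. The transcripts most like *Ago4* were *Spint1* (0.98), *Iqcg* (0.98) and *Map3k5* (0.97). *Iqcg* was at 1.29 ± 0.120 CPM in KO-con, 1.36 ± 0.507 in KO, 11.4 ± 0.844 in Over-con and 5.13 ± 0.202 in Over. These correlations describe libraries of 4 lines and follow the differences between lines.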

How the data were processed

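Total RNA was extracted with Trizol, and libraries were made with a stranded mRNA kit. The authors trimmed the reads, aligned them with HISAT2 (default settings, mm9) and deposited counts of reads per RefSeq transcript, without normalization. The counter's settings, including strand and the treatment of reads shared by transcripts of 1 gene, are not given in the sources used here. The submitters' processing notes also name DESeq2. Symbols were matched for 41186 of 41388 transcripts (99.5%) through the RefSeq table of GRCm38.p6, and 95.7% of counts fell on genes with 1 transcript.

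Groups and replicate numbers came from the sample titles. The members and the gene lists were chosen with earlier results of these data known. Each comparison was fitted on the counts with edgeR 4.0.16 (TMM, filterByExpr, glmQLFit, glmQLFTest). P-values were adjusted by Benjamini-Hochberg across every tested transcript, and those under 0.05 were called. CPM were scaled by TMM over the 12 libraries. Within groups the chi-square per degree of freedom between libraries was 2.02 to 14.0 over 12 pairs, so no library was a copy of another. Levels between genes were divided by the length of the annotated transcript. The text names every member, at most 3 called genes with the lowest adjusted p per list and comparison, the 3 transcripts most correlated with each of the 2 members of widest span, overlapping genes and markers. Named only after seeing their values were *Xpo5*, *Trim2*, *Arid3b*, *Mir17hg*, *Mir99ahg*, *Tnrc6a* in the knockout and the PIWI branch genes other than *Tex19.1*.

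Alternatives were DESeq2 1.42.0, limma-voom (limma 3.58.1), other scalings and filters, all 12 libraries in 1 fit, a replicate block, counts summed per gene, each library left out and the other control. On simulated data the knockout fit recovered 83.5% of 200 transcripts with a log2 fold change of 1, with 7 false calls, and the test of a difference 72%, with 4. The simulation gave every transcript the same dispersion, so these rates need not hold for the real libraries. Positions and 3′ UTRs came from the NCBIM37 annotation, and promoters were not used. Seed matches were exact. Figures were drawn with matplotlib 3.10.9 in Python 3.11.15, and fits were run in R 4.3.3.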

Additional observations from a re-analysis of the deposited data

Results flagged for a closer look

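For 7 transcripts the change in the knockout differed from the change in the overexpressing line, each against its own control, in the fit over all 12 libraries (edgeR's quasi-likelihood test of the difference). The values are the knockout log2 fold change minus the overexpression log2 fold change. Those of the members *Trim71*, -2.43 (SE 0.24), and *Ago4*, 0.64 (SE 0.10), are a description, since these genes were chosen with the contrast in view. On the pathway lists, also chosen with earlier results known, 5 of 66 transcripts were called (7.58%). Over all 9903 transcripts tested the share was 8.64%, so the lists were not above it. Of these 5, *Plagl2* differed by -0.43 (adjusted p = 0.00386) and *Cnot3* by -0.50 (adjusted p = 0.0165). *Khsrp* differed by -0.36 (adjusted p = 0.0173) and *Cdk6* by -0.30 (adjusted p = 0.0486). *Ccnd1*, a D-type cyclin, differed by 0.36 (adjusted p = 0.0237), although neither effect alone passed, with 0.21 (adjusted p = 0.0665) in the knockout and -0.15 (adjusted p = 0.355) in the overexpressing line. The calls of *Plagl2* and *Khsrp* were made under each of 17 alternatives, and those of *Cnot3*, *Ccnd1* and *Cdk6* under 15, 13 and 5 of them. The control lines also differed for *Trim71*, *Ago4*, *Plagl2*, *Cdk6*, *Cnot3* and *Khsrp*, and the part of that difference in these values was not tested.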

How the results depend on the processing

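Over 448 recomputed log2 fold changes of the members, 437 moved by less than the spread between libraries, 9 moved by more and 2 that had been called turned. Values that had not been called, such as those of *Dgcr8* and *Ago3*, also crossed 0 under some alternatives. Both called values that turned were in the overexpressing line with KO-con as its control, *Ago2* at 0.13 and *Ago4* at 0.86. *Egr1* turned to 0.39 there, and with Over-con as the control of the knockout *Khsrp* stood at 0.0017, *Plagl2* at 0.32 and *Cdk6* at 0.23. The 1115 calls of the knockout became 738 against Over-con, and lay between 613 and 1271 with 1 library left out, lowest without KO-con replicate 1. They were 664 without KO-con replicate 2, 715 without KO replicate 2 and 722 without KO-con replicate 3. Its 161 calls over the fold threshold became 103 with at least 10 counts in every library, and its 11 pathway calls became 4 against Over-con and 5 to 13 with 1 library left out. The 155 calls of the overexpressing line became 302 with no filter and 2026 against KO-con, and lay between 48 (without Over replicate 3) and 719 (without Over-con replicate 3). They were 55, 58, 61 and 90 without Over replicates 1 and 2 and Over-con replicates 1 and 2. Its 16 calls over the fold threshold became 8 by DESeq2, 34 with no filter and 156 against KO-con, and lay between 8 and 73. Its 3 pathway calls became 1 with all 12 libraries in 1 fit and 18 against KO-con, and lay between 0 and 4. With 1 library left out, the 1516 calls between controls lay between 882 (without KO-con replicate 1) and 1988, being 998 without Over-con replicate 1, their 13 pathway calls between 4 and 13, and the 856 calls of the difference between 536 (without Over replicate 2) and 1126, being 541, 556 and 564 without Over, Over-con and KO-con replicate 1.

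The replicate numbers do not pair the libraries: correlations of same-numbered libraries lay between -0.21 and 0.06. With the replicate number as a block the overexpression calls became 67, those over the fold threshold 8 and the pathway calls 1. The knockout had 837 calls and 11 pathway calls. Depth limits *Lin28a*, *Lin28b* and *Cdkn1a*, and the counting of reads on genes with several transcripts limits *Ago1* and *Drosha*.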
